A study of Mus musculus with 3 samples.

Results

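The bone morphogenetic protein (BMP) and transforming growth factor beta (TGF-β) pathway was examined in mouse astrocytes derived from embryonic stem (ES) cells. Its genes were taken as a list of 36, with 9 ligands, 9 receptors, 8 Smads, 4 inhibitors, the 4 Id genes and 2 genes of ligand processing and latency. A gene counted as measured when a probe set on the array was annotated to it alone, and all 36 were measured, on 83 probe sets, among 18194 genes on 34958 such probe sets. For the series, ES cells were carried through embryoid bodies for 4 days and ITSFn selection medium for 5 to 7 days, and the neural precursors were then kept in FGF2 and a factor labelled EGF2. At 18 passages after embryoid body formation, the growth factors were withdrawn and 5% FBS (fetal bovine serum) was added for 5 days. The 3 samples, titled wt and with no other genotype or strain label, form a single group, so no treated or untreated comparison exists and each gene was set against background only.

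BMPs, TGF-βs and activins are secreted dimers that bring type II and type I receptor kinases together on the cell surface. Type I receptors then phosphorylate receptor Smads, Smad1, Smad5 and Smad9 for BMPs and Smad2 and Smad3 for TGF-β and activin, which enter the nucleus with Smad4. Among the classic genes they switch on are the Id genes, whose products block basic helix-loop-helix factors that drive neurons. In neural precursors BMP signalling is known to promote astrocyte fate and to oppose neuronal and oligodendrocyte fates.

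All values are log2 of the deposited Affymetrix array signal, on which 1 unit is a doubling of signal. Background was set from 78 genes for odour and taste receptors and their relatives. The limit on each array, the 95th percentile of these genes, was 3.99, 4.10 and 4.07 on replicates 1, 2 and 3 (mean 4.05). Levels of different genes are not ranked, because probe sets differ in brightness. On the deposited linear scale, before log2, the median probe-set signal of the arrays lay between 19.4 and 23.3. Markers of astrocytes were above background in 8 of 8 cases, among them Gfap and Aqp4. Those of neurons were in 2 of 5 (Syt1 and Rbfox3) and of the oligodendrocyte lineage in 1 of 5 (Pdgfra). For microglia it was 1 of 4 (Csf1r), for endothelium 1 of 4 (Kdr) and for mesenchymal cells 0 of 6 (limma). The share over all genes tested was 58.3%. At an unadjusted p below 0.05 the oligodendrocyte lineage had 2 of 5, with Mbp added, and mesenchymal cells again 0 of 6. One of the mesenchymal genes, Dcn, is also among the further inhibitors counted later. No label says that the samples were separate cultures, so p-values reflect the variation among these 3 samples alone, and it may be technical in origin.

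The cells carried signal for the receptors, most Smads and the Id genes of the pathway, on the brightest probe set of each, and for 4 of its 9 listed ligands. Of the 36 genes, 28 were above background, against 58.3% of the 18116 genes tested (limma, one-sided against the limit, with an adjusted p below 0.05 after Benjamini-Hochberg). By role these were 9 of 9 receptors, 7 of 8 Smads, 4 of 4 Id genes, 3 of 4 inhibitors, 4 of 9 ligands and 1 of 2 processing and latency genes. Each of the 28 lay above the limit on all 3 arrays, and all but Bmp7, Tgfb2 and Nog did so by more than 1 log2 unit on average. When the probe sets of each gene were summarised by their median rather than by the brightest, 21 of the 36 were above background, against 50.6% of all genes at that setting. Receptors then counted 5 of 9, Smads 6 of 8 and ligands 2 of 9. In bulk RNA a low signal from few cells and from little RNA per cell cannot be told apart.

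**Figure D1:**
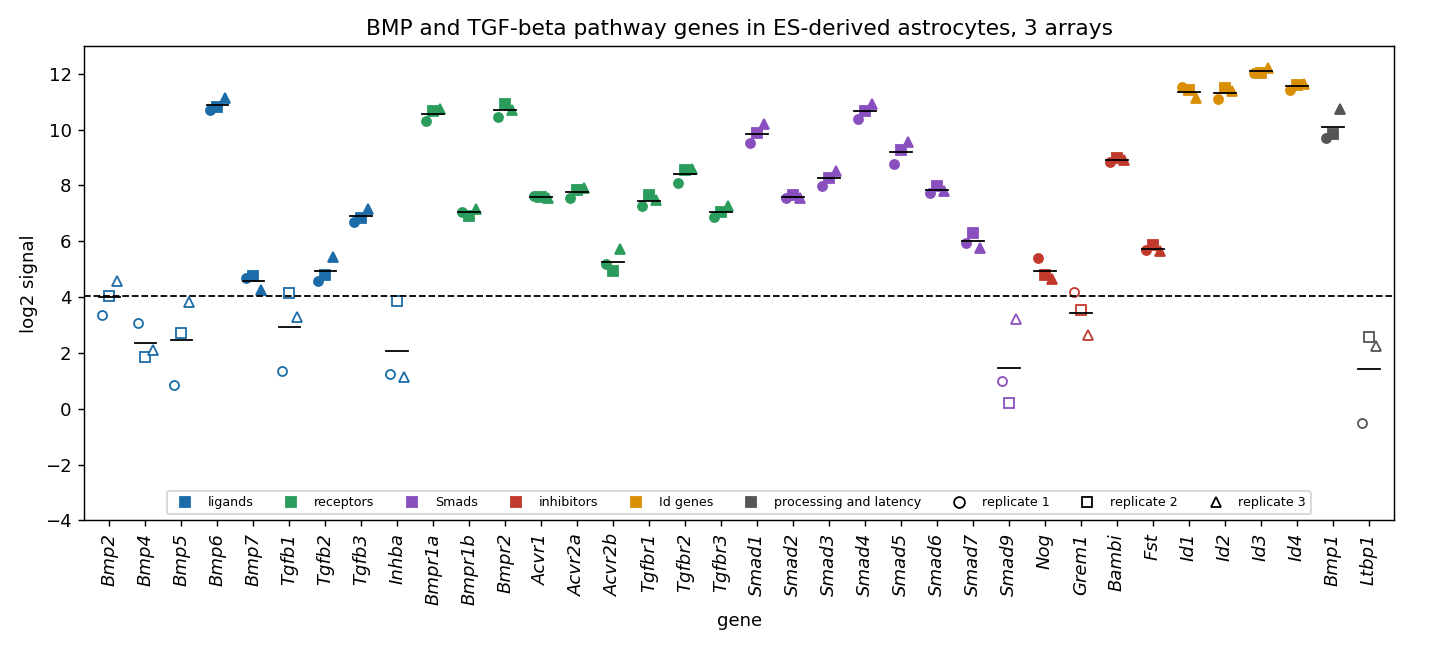
Log2 signal (y axis) of the 36 pathway genes (x axis, grouped and coloured by role) on each of the 3 arrays (circle, square and triangle for replicates 1, 2 and 3), with the mean as a short bar. Filled symbols mark the 28 genes above background, the dashed line is the mean limit of 4.05, and most open symbols belong to ligands.

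Among the BMP ligands, Bmp6 stood far above the limit and Bmp4 did not reach it. Bmp6, a ligand that acts in iron control and bone, was at 10.71, 10.82 and 11.15 on replicates 1, 2 and 3, a mean of 10.89 ± 0.23 (SD, n = 3; adjusted p = 3.85e-05, limma). Its 3 arrays lay close together, 6.84 log2 units above the limit on average, on its single probe set. Bmp7, a ligand needed for kidney and eye, was at 4.68, 4.75 and 4.26, a mean of 4.57 ± 0.27 (adjusted p = 0.0396, limma). All 3 values were just above the limit, on the brightest of its 3 probe sets. That probe set missed the threshold in the fit over probe sets (adjusted p = 0.0552, limma), and the gene's call was lost without replicate 1 (adjusted p = 0.148) or replicate 2 (adjusted p = 0.182).

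Bmp2, closely related to Bmp4, was at 3.35, 4.05 and 4.59, a mean of 4.00 ± 0.62 that straddled the limit and did not pass (adjusted p = 0.901, limma). On its single probe set, only the value on replicate 3 exceeded its array's limit. Bmp4, a ligand of early mesoderm and of dorsal neural tissue, was at 3.07, 1.87 and 2.09 on its single probe set, below the limit on every array. Bmp5, a close relative of Bmp6 and Bmp7, was at 0.85, 2.73 and 3.82 on its brightest probe set and below the limit throughout, and none of its 3 probe sets passed. Thus 2 of 5 BMP ligand genes were above background.

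Of the 3 TGF-β ligand genes, Tgfb3 and Tgfb2 passed and Tgfb1 did not. Tgfb3, known for its part in palate fusion, was at 6.70, 6.83 and 7.15, a mean of 6.89 ± 0.24 (adjusted p = 0.000145, limma). It was 2.84 log2 units above the limit on its single probe set. Tgfb2, a TGF-β of heart and eye development, was at 4.57, 4.78 and 5.43, a mean of 4.93 ± 0.45 (adjusted p = 0.0175, limma). All 3 arrays were above the limit, and 2 of its 4 probe sets passed. With the median of its probe sets Tgfb2 lost its call (adjusted p = 0.148). Tgfb1, the TGF-β best known from immune control and fibrosis, ranged over 1.34, 4.15 and 3.28, with a mean of 2.92 ± 1.44. Neither of its 2 probe sets passed, and only replicate 2 was above its limit.

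Inhba, which encodes a subunit of activin A, was at 1.23, 3.86 and 1.13, below the limit on every array. The activin subunit gene Inhbb, which is outside the list of 36, was by contrast at 8.18, 8.36 and 8.72, a mean of 8.42 ± 0.28 (adjusted p = 6.17e-05, limma). Both of its probe sets were above background. No test compared the 2 activin genes, whose probe sets differ in brightness.

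The genes that process and store ligands split. Bmp1 is not a BMP-type ligand but a metalloprotease, which cuts procollagens and the BMP antagonist chordin. It was at 9.69, 9.86 and 10.74, a mean of 10.10 ± 0.56 (adjusted p = 8.79e-05, limma). Replicate 3 was the highest of its arrays by a wide margin. Its second probe set, also above background, was at 8.04, 8.09 and 8.10, without that gap, and the remaining one was not above background. Ltbp1, a matrix protein that binds latent TGF-β, was at -0.52, 2.57 and 2.26 on its brightest probe set, and none of its 3 probe sets passed.

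All 9 receptor genes were above background on the brightest probe set of each, beside 58.3% of all genes tested. Of their 28 probe sets, 18 were above background, beside 52.2% of all probe sets tested. The type I BMP receptor gene Bmpr1a was at 10.31, 10.65 and 10.75, a mean of 10.57 ± 0.23 (adjusted p = 3.85e-05, limma), and its 6 probe sets all passed. Bmpr2, the BMP type II receptor gene, was at 10.47, 10.91 and 10.70, a mean of 10.69 ± 0.22 (adjusted p = 3.85e-05, limma), with all 3 probe sets above background. Both genes therefore had signal on every probe set and every array. Bmpr1b, the second BMP type I receptor gene, was at 7.06, 6.91 and 7.14, a mean of 7.04 ± 0.12, but on 1 of 3 probe sets. Acvr1, a type I receptor shared by BMPs and activins and mutated in a human disease of bone formation in muscle, was at 7.61, 7.59 and 7.54. Its SD of 0.04 was the smallest among the 36 genes, and 2 of its 3 probe sets passed.

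The activin type II receptor genes, whose products also serve BMPs, both passed. Acvr2a was at 7.54, 7.85 and 7.93, a mean of 7.77 ± 0.21, on both of its probe sets. Acvr2b was at 5.18, 4.93 and 5.71, a mean of 5.27 ± 0.40 (adjusted p = 0.00569, limma). It rested on 1 of 3 probe sets and lost its call with their median (adjusted p = 0.227).

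The TGF-β receptor genes passed on the brightest probe set of each and on no other. Tgfbr1, the type I receptor, was at 7.25, 7.64 and 7.47, a mean of 7.46 ± 0.20 (adjusted p = 7.18e-05, limma). Tgfbr2, the type II receptor, was at 8.08, 8.55 and 8.59, a mean of 8.40 ± 0.28 (adjusted p = 5.84e-05, limma). In both genes the 3 arrays were over 3 log2 units above the limit on this probe set, while the remaining probe sets were not above background. Tgfbr3, betaglycan, a co-receptor that presents TGF-β to the type II receptor, was at 6.88, 7.06 and 7.26, a mean of 7.07 ± 0.19, on 1 of 2 probe sets. Summarised by the median, Tgfbr1, Tgfbr2 and Bmpr1b lay below the limit, by 0.69, 0.09 and 0.21 log2 units, and the 5 of 9 receptor genes above background at that setting stood beside 50.6% of all genes.

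On the brightest probe set of each, 5 of 6 signalling Smads were above background, beside 58.3% of all genes tested. They included genes of both receptor Smad branches. On the BMP branch, Smad1 was at 9.51, 9.87 and 10.20, a mean of 9.86 ± 0.34 (adjusted p = 4.61e-05, limma), and Smad5 at 8.76, 9.26 and 9.55, a mean of 9.19 ± 0.40 (adjusted p = 6.66e-05, limma). All 3 probe sets of each passed, and on the brightest one replicate 1 was the lowest array for both genes. On a dimmer probe set of Smad1 and both dimmer ones of Smad5, replicate 3 was the lowest. Smad9, the remaining BMP Smad, was at 0.99, 0.20 and 3.23 on its only probe set, below the limit on every array. On the TGF-β and activin branch, Smad2 was at 7.56, 7.66 and 7.56, a mean of 7.59 ± 0.06 (adjusted p = 5.48e-05, limma), with both probe sets above background. Smad3 was at 7.97, 8.26 and 8.54, a mean of 8.26 ± 0.28 (adjusted p = 6.56e-05, limma), on 1 of 3 probe sets, and its call was lost with their median (adjusted p = 0.117). Smad4, the partner common to both branches, was at 10.39, 10.67 and 10.91, a mean of 10.66 ± 0.26 (adjusted p = 3.85e-05, limma), on all 3 of its probe sets.

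The inhibitory Smads, which are themselves induced by the pathway and block its receptors, were both above background. Smad6, which acts mainly on BMP signalling, was at 7.74, 7.99 and 7.81, a mean of 7.85 ± 0.13 (adjusted p = 5.13e-05, limma). Smad7, which blocks both branches, was at 5.95, 6.29 and 5.75, a mean of 5.99 ± 0.27 (adjusted p = 0.000572, limma). Every array was above the limit for both genes, and so was every probe set, 1 for Smad6 and 2 for Smad7.

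**Figure D2:**
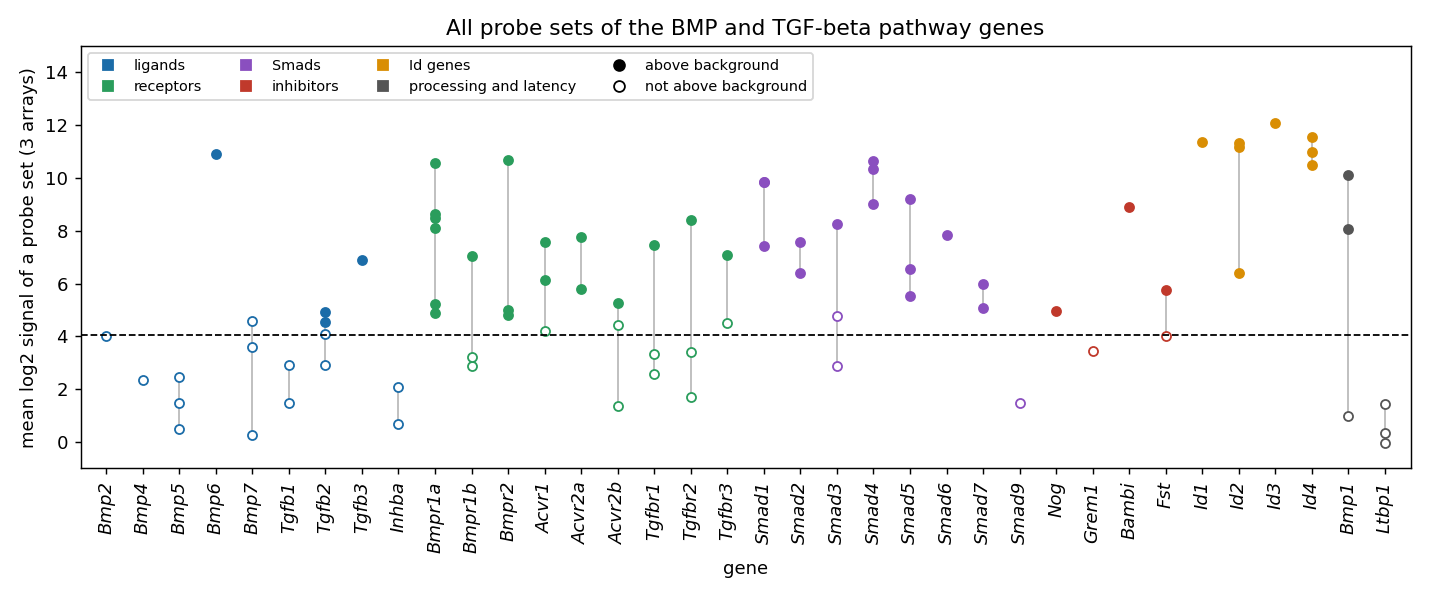
Mean log2 signal over the 3 arrays (y axis) of each of the 83 probe sets of the 36 genes (x axis, coloured by role), filled where the probe set was above background. The 3 TGF-β receptor genes, Bmpr1b, Acvr2b, Smad3 and Fst each have 1 filled symbol above open ones, while all symbols of Bmpr1a, Bmpr2, Smad1, Smad4, Smad5, Id2 and Id4 are filled.

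Over all 36 genes, 50 of 83 probe sets were above background, against 52.2% of the 34871 probe sets tested (limma, adjusted over probe sets). Of the 21 genes above background that had several probe sets, 10 (47.6%) had all of them above background, compared with 42.4% of the 6773 such genes on the array. In 7 of the 21 exactly 1 probe set passed, in 3 several but not all did, and Bmp7 had none. The other 7 genes above background have a single probe set and could not be checked in this way.

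Of the inhibitors that act outside the cell or at its membrane, 3 of 4 were above background. Bambi, a decoy receptor that lacks the kinase domain, was at 8.835, 8.999 and 8.902, a mean of 8.91 ± 0.08 (adjusted p = 3.88e-05, limma). Fst, follistatin, which binds activins, was at 5.67, 5.88 and 5.66, a mean of 5.74 ± 0.12 (adjusted p = 0.000396, limma), on 1 of 2 probe sets. These 2 genes had tight values on all arrays. Nog, noggin, which sequesters BMPs, was at 5.40, 4.79 and 4.67, a mean of 4.95 ± 0.39 (adjusted p = 0.018, limma). Replicate 1 was the highest, and with the limit at the 99th percentile Nog did not pass (adjusted p = 0.181). Grem1, gremlin, another BMP antagonist, was at 4.17, 3.53 and 2.63, a mean of 3.44 ± 0.77, and did not pass.

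The 4 Id genes were all above background by more than 7 log2 units. Id1 was at 11.51, 11.41 and 11.14, a mean of 11.35 ± 0.19, and Id2 at 11.10, 11.49 and 11.39, a mean of 11.33 ± 0.20. Id3 was at 12.04, 12.04 and 12.22, a mean of 12.10 ± 0.10, and Id4 at 11.43, 11.59 and 11.62, a mean of 11.55 ± 0.10. The adjusted p of each was 3.85e-05, a value shared by Bmp6, Bmpr1a, Bmpr2 and Smad4 and the lowest among the 36 genes (limma). Id2 and Id4 passed on all 3 of their probe sets and Id1 and Id3 on their single one. The dimmest probe set of Id2 was at 6.55, 6.35 and 6.29, and the 3 of Id4 had means between 10.48 and 11.55. None of the 11 alternative settings changed the call of an Id gene.

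Since Id genes and Smad6 are direct targets of BMP Smads, promoter windows are shown for those among them that have an entry of 270 bases in the RefSeq-derived table, Id2, Id3, Id4 and Smad6. Capitals mark GGCGCC, the GC-rich element bound by BMP Smads, and GTCT or its reverse complement AGAC, the short Smad box. Each window runs 5′ to 3′ on the strand of the gene, from 250 bases before the start of transcription through the first 20 transcribed bases (build GRCm38.p6). They lie at chr12:25096073-25096342 on the minus strand (Id2), chr4:136143572-136143841 on the plus strand (Id3), chr13:48260866-48261135 on the plus strand (Id4) and chr9:64022040-64022309 on the minus strand (Smad6).
Id2: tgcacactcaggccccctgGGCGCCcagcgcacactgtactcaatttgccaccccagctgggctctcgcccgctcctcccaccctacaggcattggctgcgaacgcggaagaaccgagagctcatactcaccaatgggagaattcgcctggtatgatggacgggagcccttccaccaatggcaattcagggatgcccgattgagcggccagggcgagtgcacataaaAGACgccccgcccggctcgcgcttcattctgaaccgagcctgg
Id3: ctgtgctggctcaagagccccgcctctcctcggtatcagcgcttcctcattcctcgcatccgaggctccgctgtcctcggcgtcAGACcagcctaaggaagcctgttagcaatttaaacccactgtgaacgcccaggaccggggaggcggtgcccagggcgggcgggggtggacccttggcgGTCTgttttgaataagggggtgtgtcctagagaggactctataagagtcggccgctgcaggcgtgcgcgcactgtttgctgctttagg
Id4: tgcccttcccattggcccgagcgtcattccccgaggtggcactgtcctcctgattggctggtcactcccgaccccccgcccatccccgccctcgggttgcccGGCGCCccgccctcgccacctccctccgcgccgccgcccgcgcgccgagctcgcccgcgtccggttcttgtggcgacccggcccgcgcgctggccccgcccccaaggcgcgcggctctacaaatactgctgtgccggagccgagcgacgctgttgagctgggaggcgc
Smad6: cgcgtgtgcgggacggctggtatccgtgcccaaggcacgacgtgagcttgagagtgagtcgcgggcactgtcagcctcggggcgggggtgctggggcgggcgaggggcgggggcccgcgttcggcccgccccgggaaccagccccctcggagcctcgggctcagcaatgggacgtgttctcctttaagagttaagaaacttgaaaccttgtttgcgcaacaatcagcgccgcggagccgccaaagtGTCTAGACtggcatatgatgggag

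The windows of Id2 and Id4 each held GGCGCC once, 231 and 148 bases before the start, and those of Id3 and Smad6 did not hold it. This element was in 10.4% of the 32851 promoter windows of that length, on either strand. Those windows had a median GC content of 52.6%, while the 4 shown had between 61.9% and 75.2%. Among the 36 genes, with chromosome 18 left out, 8 of 30 windows held GGCGCC, including those of Smad9 and Grem1, which were not above background. These 8 windows had a GC content between 62.2% and 78.1%. The 30 windows belong to 24 genes, some of which have more than 1. GTCT was in 85.2% of all windows, so its matches say little. In Smad6 a GTCT and an AGAC stood side by side across the start, 4 bases before it, and formed GTCTAGAC, the palindromic Smad element, which was in 0.183% of all windows. The GTCT matches inside it are the same letters counted again. These letters describe the windows only, and no binding was measured.

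**Figure D3:**
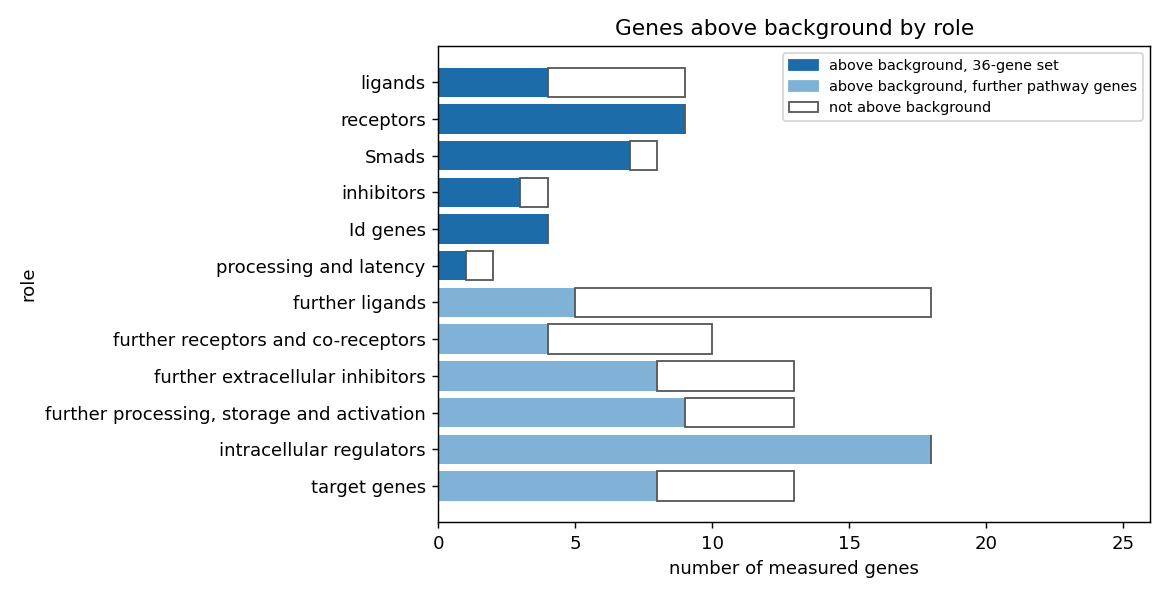
Number of measured genes (x axis) above background (filled) and not above it (open) in each role (y axis), dark for the 36 genes and light for 85 further pathway genes. Receptors, Id genes and intracellular regulators are filled throughout, and ligands are the least filled among the 36.

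In the wider pathway, 52 of 85 further genes measured were above background, beside 58.3% of all genes tested. Of 18 further ligand genes 5 passed. Gdf11, a regulator of axial patterning, was at 5.53 ± 0.46 (n = 3; adjusted p = 0.00389, limma). Nodal, Gdf10 and Bmp8a, ligands of the early embryo, of bone and of the germ line, were at 3.48 ± 0.83, 1.86 ± 1.88 and 1.64 ± 2.65, none of them above background. Of 10 further receptors and co-receptors 4 passed, among them the activin type I receptor gene Acvr1b at 8.52 ± 0.24 and the BMP co-receptor gene Rgma at 9.20 ± 0.39. Acvr1b passed on 1 of 2 probe sets and Rgma on its single one. Acvrl1 and Eng, BMP and TGF-β receptors best known from endothelium, were at 3.49 ± 0.59 and 3.74 ± 1.25, and Acvr1c, a receptor for Nodal, was at 3.49 ± 0.54. None of these 3 passed.

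Of 13 further secreted inhibitors 8 were above background, near the 58.3% of all genes tested. Chrdl1, a chordin-like BMP antagonist, was at 7.03 ± 0.31, with all 4 of its probe sets above background. Twsg1, which modulates chordin, was at 9.30 ± 0.14 and passed on 2 of 4. Bmper and Fstl3, which bind BMPs and activins, were at 5.16 ± 0.12 and 5.55 ± 0.18 and passed, whereas chordin itself, Chrd, was at 3.92 ± 0.54 and did not (adjusted p = 1, limma).

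Further genes for processing ligands and for storing and activating latent TGF-β were above background in 9 of 13 cases, beside 58.3% of all genes tested. The tolloid protease genes Tll1 and Tll2, relatives of Bmp1 named after their values were seen, were among the 4 that did not pass. The latent TGF-β binding protein genes Ltbp3, Ltbp4 and Ltbp2 were at 10.67 ± 0.46, 6.07 ± 0.43 and 5.15 ± 0.35 and all passed, unlike Ltbp1. Ltbp3 did so on 2 of 4 probe sets, and Ltbp4 and Ltbp2 on the single one of each. The integrin subunit genes Itgb8 and Itgav, which together encode an integrin that releases active TGF-β, were at 10.38 ± 0.38 and 9.77 ± 0.33 (adjusted p = 4.38e-05 and 4.53e-05, limma). Itgb8 lay on a single probe set, and 2 of 5 passed for Itgav.

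All 18 intracellular regulators, a list chosen with earlier results of these data known, were above background, beside 58.3% of all genes tested. Of their 63 probe sets, 43 were above background, beside 52.2% of all probe sets tested. The ubiquitin ligase genes Smurf1 and Smurf2, whose products mark Smads and receptors for breakdown, were at 6.41 ± 0.34 and 8.58 ± 0.29. Smurf1 passed on 1 of 2 probe sets and Smurf2 on all 3. The Smad co-repressor genes Ski, Skil and Tgif1 were at 9.59 ± 0.41, 8.23 ± 0.12 and 7.43 ± 0.27. Ski passed on both probe sets, Skil on 1 of 2 and Tgif1 on its single one. Of 13 other target genes 8 passed, near the 58.3% of all genes tested. Among them were Hey1, a transcriptional repressor induced by BMP and Notch, at 10.31 ± 0.25, and the matrix gene Ccn2, a TGF-β target, at 6.80 ± 0.31. The homeobox gene Msx1, at 5.98 ± 0.32, passed on 1 of 2 probe sets. Msx2, a further homeobox target of BMP, and Tgfbi, named for its induction by TGF-β, were at 1.91 ± 1.11 and 3.76 ± 0.89, neither of them above background.

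The arrays were compared gene by gene after removing each array's median shift over all genes above background, which was -0.18, 0.02 and 0.16 log2 units on replicates 1, 2 and 3. The 28 genes above background had a median SD of 0.22 before this step, against 0.24 for all genes above background. Only Nog deviated from its own mean by more than 0.5 log2 units on any array, at 0.63 on replicate 1 (1 of 28 genes, or 3.57%, against 6.03% of all genes above background). Id1 was 0.34 above its mean on replicate 1 and 0.38 below it on replicate 3, and Smad7 was 0.41 below its mean on replicate 3. The 8 genes that did not pass had SDs from 0.62 to 1.70. A shift of 1 array has no replicate check, so these values are given without a test.

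**Figure D4:**
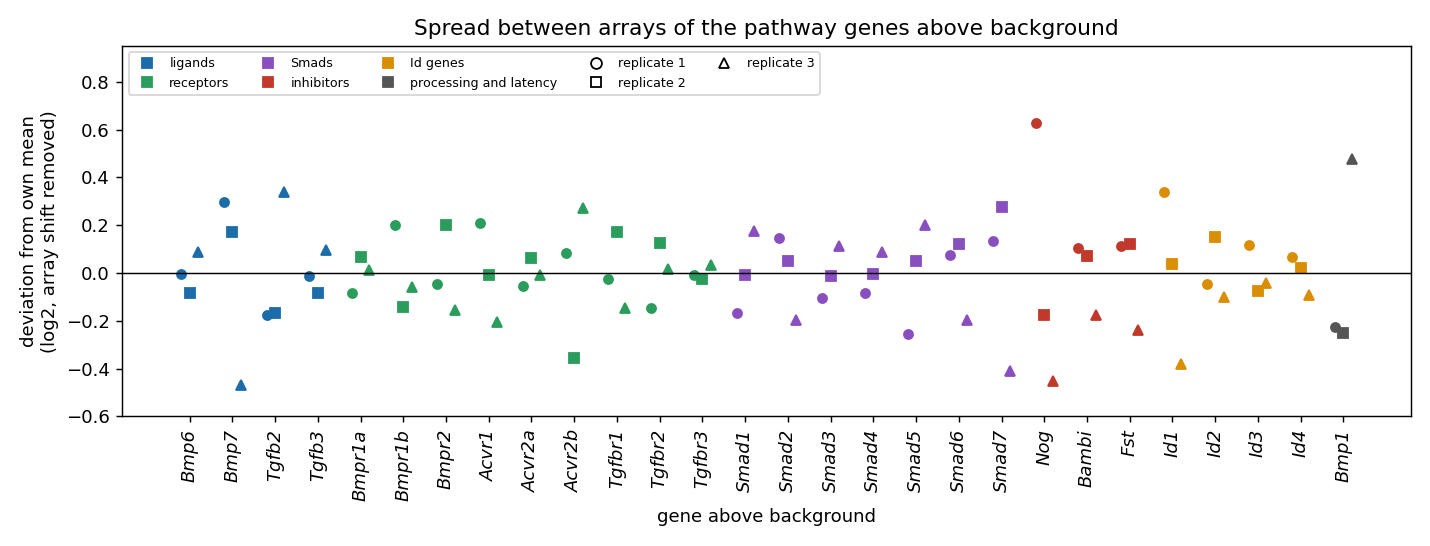
Deviation of each of the 28 genes above background (x axis, coloured by role) from its own mean over the arrays, in log2 units after removal of each array's median shift (y axis), with circles, squares and triangles for replicates 1, 2 and 3. Nog on replicate 1 is the one symbol beyond 0.5 log2 units, and Bmp7, Nog, Smad7 and Id1 are among the 13 genes lowest on replicate 3. Another 8 genes were lowest on replicate 1 and 7 on replicate 2, and this split was not counted over all genes above background.

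Replicate 3 also stood apart in the dimmer probe sets of several genes. The second probe set of Smad5 was at 7.31, 7.39 and 5.00 on replicates 1, 2 and 3, while its brightest was highest on replicate 3. A dimmer probe set of Smad3 was at 3.74, 4.18 and 0.67. One of Tgfbr2 and one of Bmpr1b were also lowest there, at 4.36, 4.65 and 1.21 and at 4.22, 4.49 and -0.11. These probe sets of Smad3, Tgfbr2 and Bmpr1b had means below the limit, at 2.86, 3.41 and 2.87, and are not in the count that follows. The other dimmer probe set of Tgfbr2 went the opposite way, at 0.57, 1.79 and 2.81. Among genes with several probe sets, 28 dimmer probe sets of the pathway had a mean above the limit. On the signal as measured, 17 of the 28 were lower on replicate 3 than the mean of replicates 1 and 2 (median difference -0.12 log2 units), against 49.8% of the 9232 such probe sets on the array. After each array's median shift was removed, 22 of the 28 were lower (median -0.37), against 67.4% on the array (median -0.24). On that shifted scale the brightest probe sets of the same genes had median differences of -0.01 in the pathway and 0.01 in all genes. The shift itself was taken from brightest probe sets, so small medians there follow from its removal. As measured, the brightest had median differences of 0.23 in the pathway and 0.26 in all genes. The dimmer ones in all genes had 0.0032 on that measured scale. The array's own control probe sets gave signal at the 3′ end relative to the 5′ end of -0.38, -0.38 and 0.31 log2 units for Gapdh and 0.16, 0.23 and 0.98 for beta-actin on replicates 1, 2 and 3. Their part in the values of the pathway genes was not tested. Without replicate 3 the same number of the 36 genes, 28, was above background, a count that rests on brightest probe sets. Of all probe sets of the 36 genes, 50 were above background with all arrays and 53 without replicate 3. Without replicate 1 there were 46, and without replicate 2 there were 42.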

How the data were processed

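RNA of 3 samples of 1 group was measured on 1-colour Affymetrix whole-genome mouse arrays, and the deposited table holds 1 linear intensity per probe set (45101) and array. GCOS 1.4 is named in the submitters' processing notes. Scaling and detection settings were not given in the sources used here. By platform annotation, 34958 probe sets named 1 gene, 932 named several (not used), and 9211 named none. The deposited intensities were put on a log2 scale without a pseudocount, and a gene's value was its probe set with the highest mean. The test of each gene used limma 3.58.1 (R 4.3.3) on log2 signal minus the array's limit (one-sample, one-sided, eBayes, Benjamini-Hochberg over 18116 genes), and probe sets likewise. The test was also run on simulated data with a common limit, no array shifts and no choice among probe sets. It therefore does not check the limit or the choice of probe set. A gene that did not pass is not shown to be absent, and 3 arrays limit the precision. The genes named are the 36 members and the first 5 measured of each further list. Members and lists were chosen with earlier results of these data known. Promoter sequences are RefSeq's (GRCm38.p6), cut to 270 bases, and windows of 24 of 36 members were used. Member windows on chromosome 18, where Smad2, Smad4, Smad7 and Bambi lie, were left out. The shares over all windows kept that chromosome. Alternatives were the 90th and 99th percentile as limit, the median over the probe sets of a gene, leaving out _s_at and _x_at probe sets, quantile normalization, a pseudocount of 16, a filter on low values, trended robust moderation and leaving out each array.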

Additional observations from a re-analysis of the deposited data

How the results depend on the processing

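Under 11 alternative settings, 27 of the 36 pathway genes kept their call and their side of the limit wherever they could be tested, since the filter on low values left out 5. The count above background lay between 21 and 28, and between 27 and 28 when 1 array was left out. The share of all genes above background ran from 50.6% with the median of the probe sets to 60.2% with the 90th percentile as limit, and was 84.8% of the 12704 genes left by the filter on low values. With the median over the probe sets of a gene, 2 ligand and 5 receptor genes were above background, and 4 genes moved below the limit: Bmp7 at -0.42, Bmpr1b at -0.21, Tgfbr1 at -0.69 and Tgfbr2 at -0.0873 log2 units. Tgfb2, Acvr2b and Smad3 lost their calls there and stayed above the limit. Bmp2 moved from below to above the limit, by 0.20 log2 units with the 90th percentile and 0.24 without replicate 1, passed in neither case, and ranged from -0.34 to 0.24 when 1 array was left out. Bmp7 and Nog lost their calls with the 99th percentile, and Bmp7 without replicate 1 or 2. The cause was not tested. For the probe sets, where the alternatives were added after seeing the data, the count lay between 43 and 51, and between 42 and 53 when 1 array was left out. The further pathway genes gave 48 to 52. No paired analysis was possible because there is 1 group. Signal near the limit sets what can be seen: 3 of the 28 calls, Bmp7, Tgfb2 and Nog, lay within 1 log2 unit of it.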

Other observations

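Some further pathway genes outside the naming rule were named after their values were seen. Among the ligands, Gdf9, an oocyte growth factor, was at 5.77 ± 0.25, the inhibin subunit gene Inha at 6.01 ± 0.39 and Gdf2, which encodes the endothelial ligand BMP9, at 4.58 ± 0.07, and all 3 were above background on the single probe set of each (adjusted p = 0.000697, 0.00104 and 0.0143, limma). The co-receptor genes Rgmb and Neo1 were at 6.90 ± 0.38 and 9.87 ± 0.32, and the antagonist gene Nbl1 was at 9.91 ± 0.37. Rgmb passed on 5 of 6 probe sets, Neo1 on 2 of 5 and Nbl1 on its single one. Atoh8, a helix-loop-helix gene induced by BMP, was at 7.96 ± 0.37 and above background on its single probe set (adjusted p = 0.000121, limma). The homeobox genes Dlx1, Dlx2 and Dlx5, BMP targets of the forebrain and skeleton, were at 2.44 ± 0.90, 3.71 ± 0.78 and 2.09 ± 1.13 and did not pass.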
